A study of Danio rerio with 12 samples.

Results

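Histones are the small basic proteins that package DNA into nucleosomes, and 50 of the 13680 genes in the deposited table carry a histone name. They were taken by name: 38 entries whose name starts with hist, a digit and h, here called replication-dependent, and 12 entries named h2af, h3f3 or h1f, here called variant. The measurements come from zebrafish embryos of the AB strain, collected at 24 hours after fertilisation and read by 3' tag RNA sequencing, which counts tags next to the poly(A) tail, so that values do not grow with the length of a transcript. In 6 libraries the fathers had been starved and in 6 they had been fed, and in both groups the eggs, fertilised in vitro, came from wild-type females that had been fed. A library held 1 to 3 embryos of a clutch. Whether every library had a father of its own is not given in the labels, and in both groups replicates 5 and 6 have one code in common, so the p-values measure only the spread between these libraries. Libraries are called starved 1 to 6 and fed 1 to 6 after the diet of the father and the replicate number.

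Replication-dependent histone genes are switched on in S phase, when new DNA must be packaged, and in animals they lie in arrays of many near-identical copies without introns. Most of their messenger RNA ends in a stem-loop and not in a poly(A) tail, so a kit that primes on poly(A) is not designed to capture that form. Most variant histones, though not all, are made through the cell cycle from polyadenylated, intron-containing genes. Core variants replace the standard histones at particular places. H3.3 is found at active and at some silent chromatin, H2A.Z at promoters and macroH2A in repressed chromatin. H2A.X is the form that is phosphorylated around DNA breaks. The linker histones H1 bind the DNA between nucleosomes. In a rapidly growing embryo both kinds are in demand.

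The whole reads behind the deposited values, which are reads divided by a size factor of each library, came to 2950739 to 3934765 per library over the listed genes. The 38 replication-dependent entries together held 2018 to 8056 of these reads per library and the 12 variants 9220 to 14621. Libraries differed in makeup. The summed value of 16 muscle markers, all detected, ran from 9420 to 20021 in starved-father and from 4199 to 20508 in fed-father libraries, lowest in fed 4 and fed 5. Reads of the mitochondrial chromosome took 29.4% in starved 3 (95% exact Clopper-Pearson interval 29.4 to 29.5), the lowest share, and up to 50.5% in fed 5 (50.5 to 50.6). Intervals cover counting error only. The immediate early gene fosab was at 356 in starved 2 and 67.6 in starved 5, and at most 6.85 in the other libraries. In these bulk libraries fewer cells of a kind and less RNA per cell cannot be told apart.

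The 38 replication-dependent entries carried only 12 different names, since 20 of them were called hist1h4l (histone H4), 4 hist1h2a11, 4 hist1h2a3 and 2 hist1h2a10. By name there were 20 H4 entries, 15 H2A entries, 1 entry each for H2B (hist1h2ba) and H3 (hist2h3c), and hist2h2l, described only as H2-like. The arrays also hold entries without such a name, taken up below, so these counts need not cover every copy of a kind. Copies that share a name are told apart here by the last 6 digits of their Ensembl identifiers, which all begin with ENSDARG00000. A reference list of names gave a symbol for 35 of the 38, equal to the name in the table for 9. It calls the hist1h2a11 copy 086552 h2ax2, an H2A.X gene by that name, and the copy 105444 hist1h2a8. The sources used here do not give how reads that match several copies were counted, and the split of reads between copies of a name is uncertain throughout.

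All but 1 of the replication-dependent entries lay on chromosome 7 (15 entries) or chromosome 25 (22 entries), in build GRCz11. Grouped where neighbours were at most 200000 bases apart, they formed arrays of 2 entries at bases 5909271 to 5975991, 11 entries at 6340617 to 6468611 and 2 entries at 73814951 to 73852594 of chromosome 7, and of 13 entries at 35045803 to 35152227 and 9 entries at 36310250 to 36362958 of chromosome 25. The exception was hist2h2l, on chromosome 10, 213 bases from the variant gene h2afx1. The gene models were short, 312 to 824 bases, against 626 to 14552 bases for the variants. The span was exactly 312 bases in 14 of the 20 H4 entries, among them all 12 on chromosome 25, and 387 bases in 6 of the 15 H2A entries. Of the 38 spans, 25 were multiples of 3.

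Few copies carried most of the signal. The H4 entries 111165, 105409 and 115281 held 68.0% of all replication-dependent reads over the 12 libraries. Their mean values were 290, 274 and 216, followed by hist1h2a6 at 75.3, hist1h2a11 copy 105444 at 60.3 and hist1h2ba at 51.7. At the other end 25 of the 38 had a mean value under 5, and the lowest, hist1h2a11 copy 100906, had 49 reads in all 12 libraries together. Among the variants, h3f3b.1 on chromosome 24 (mean value 1174), h2afvb (756) and h3f3a (589) held 73.0% of the reads, and h2afy alone had a mean value under 5. The table holds 8 more entries that it describes as core or linker histones under names outside the rule, and these are not counted here.

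**Figure D1:**
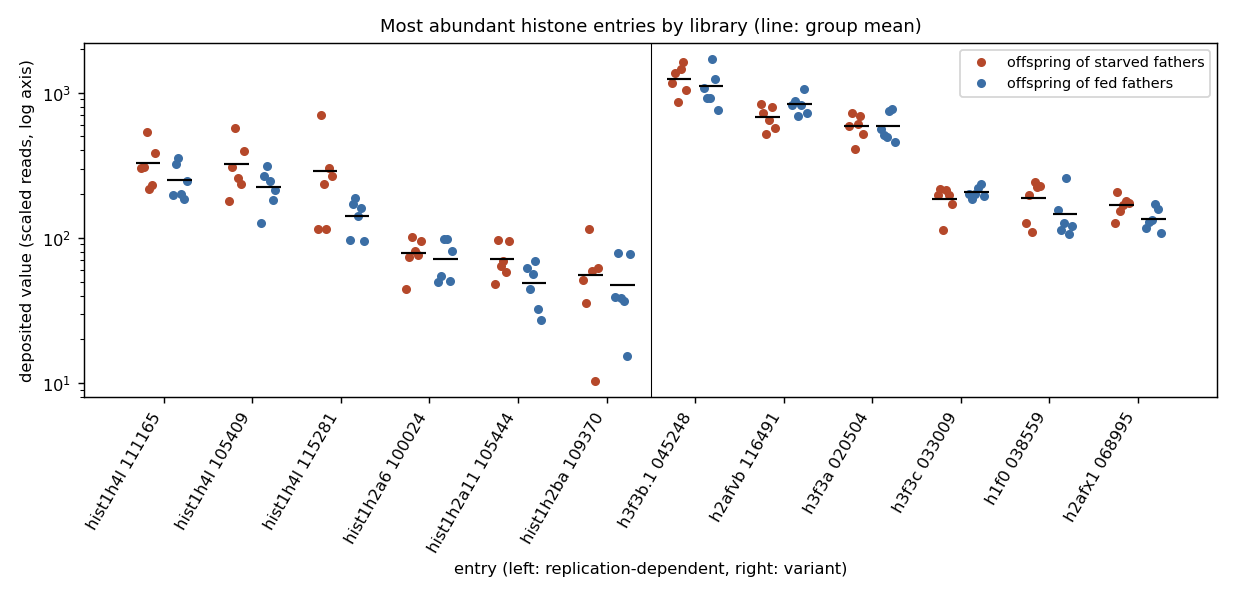
Deposited value (reads divided by a size factor, log axis) of the 6 most abundant replication-dependent and the 6 most abundant variant entries in each library, offspring of starved fathers in red and of fed fathers in blue, with the group mean as a line. The points of the groups overlap for every entry, and hist1h4l copy 115281 has its highest point, 701, in starved 2.

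Histone H4 is the most conserved of the core histones and pairs with H3. Copy 111165 (chromosome 25, bases 35147387 to 35147698) ran from 217 over a median of 306 to 534 in offspring of starved fathers, and from 185 over 222 to 356 in offspring of fed fathers. Copy 105409 (chromosome 7, bases 6460425 to 6460821) ran from 180 over 283 to 569 in offspring of starved fathers, and from 127 over 230 to 314 in offspring of fed fathers. For both copies the highest value was in starved 3, and the groups overlapped. The group means were 329 ± 117 and 251 ± 72.1 for copy 111165, and 324 ± 140 and 225 ± 65.7 for copy 105409 (starved and fed fathers, SD, n = 6 each). Neither passed the test across all genes: the log2 differences, starved minus fed on log2(value + 1), were 0.37 ± 0.21 and 0.48 ± 0.23 (SE; limma, adjusted p = 0.885 for both). Without starved 3 they were 0.22 and 0.29. Fitted with replicate number as a block, limma gave an adjusted p of 0.297 for copy 111165 and 0.116 for copy 105409.

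Copy 115281 (chromosome 25, bases 35107480 to 35107791) was highest in another library. It ran from 116 over 251 to 701 in offspring of starved fathers, and from 94.8 over 151 to 188 in offspring of fed fathers. The means were 290 ± 216 for starved and 142 ± 38.8 for fed fathers (SD, n = 6 each). The log2 difference was 0.79 ± 0.31 (SE; limma, adjusted p = 0.868). It was 0.48 without starved 2, and 0.31 without starved 2 and starved 5. Fitted with replicate number as a block, limma gave this copy an adjusted p of 0.0542. The high libraries were starved 2, with 701, then starved 5 with 305, starved 6 with 266 and starved 3 with 236. These lay above every fed-father library, while starved 1 and starved 4, at 116 each, lay inside the range of fed fathers' offspring. In the authors' deposited table it is listed as higher, with a log2 fold change of 0.78 and an FDR of 0.00235. A smaller H4 entry, copy 111501 (chromosome 7, bases 73814951 to 73815262), is the other replication-dependent entry of the authors' deposited table at an FDR below 0.1 (log2 fold change 0.82, FDR 0.0832). Of all genes in the authors' deposited table, 0.146% are higher at an FDR below 0.05, where copy 115281 is the only histone entry, 0.219% are higher at an FDR below 0.1 and 0.841% are lower at an FDR below 0.1, with no histone entry among the lower ones. Copy 111501 ran from 10.2 over 28.3 to 54.5 in offspring of starved fathers and from 8.61 over 17.0 to 22.2 in offspring of fed fathers, with its highest values in starved 3, starved 6 and starved 2.

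The share of the H4 reads that a copy took does not depend on the size factor. Copy 115281 took 48.5% of the H4 reads in starved 2 (95% exact interval 47.1 to 50.0) and 36.6% in starved 5 (34.6 to 38.5), but 15.3% (14.4 to 16.2) in starved 3, the library with the most H4 reads. In the other 3 starved-father libraries it took 17.2% to 22.9%, and in the fed-father libraries 15.6% to 27.7%. In starved 2 the copies 111165 and 105409 took 21.2% each, the lowest share of either in any library. Starved 2 and starved 5 are also the libraries in which fosab was high, at 356 and 67.6. Any link between these measures was not tested.

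**Figure D2:**
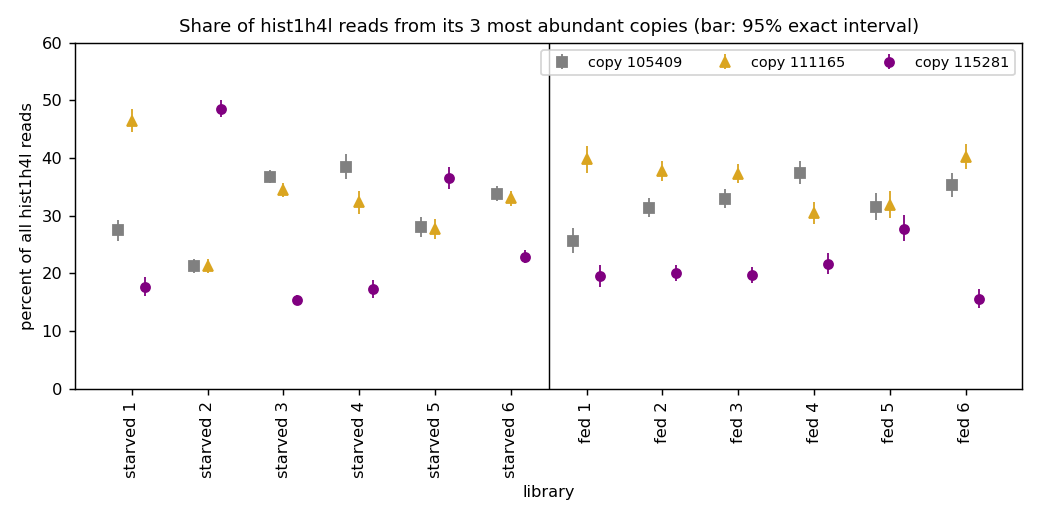
Percent of all hist1h4l reads of a library that came from copies 105409, 111165 and 115281, with 95% exact binomial intervals, for starved-father libraries on the left and fed-father libraries on the right. Copy 115281 reaches 48.5% in starved 2 and 36.6% in starved 5 and stays at or below 27.7% in the other 10 libraries.

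The 16 remaining H4 copies were weak, with mean values from 1.28 to 9.04. Their log2 difference was positive for 14 and negative for 2, none passing, and 9 had their highest value in starved 3. Summed over all 20 H4 entries the value was 1053 ± 391 in offspring of starved fathers and 691 ± 175 in offspring of fed fathers (SD, n = 6 each). Without copy 115281 the sums were 763 ± 306 and 549 ± 146. The sum over all 20 copies was highest in starved 3 (1548), starved 2 (1444) and starved 6 (1164), all above the highest fed-father library (955 in fed 3), while starved 1 (655) and starved 4 (671) were close to the fed median of 631.

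Histone H2A pairs with H2B in the nucleosome. The hist1h2a11 copy 105444 (chromosome 7, bases 6468174 to 6468611) ran from 48.3 over 66.2 to 97.4 in offspring of starved fathers and from 27.3 over 50.3 to 69.6 in offspring of fed fathers. It was highest in starved 2 and starved 6, and fed 4 lay above 4 of the starved-father libraries. Its means were 71.9 ± 19.8 and 48.6 ± 16.8 (starved and fed fathers, SD, n = 6 each; log2 difference 0.59 ± 0.23, SE; limma, adjusted p = 0.868). In the same array hist1h2a6 (chromosome 7, bases 6426736 to 6427198) ran from 44.3 over 78.5 to 102 in offspring of starved fathers and from 49.5 over 67.5 to 98.5 in offspring of fed fathers, so that the groups overlapped almost wholly (log2 difference 0.14 ± 0.22, SE; limma, adjusted p = 0.960). Leaving out single libraries moved it between 0.051, without fed 1, and 0.30, without starved 1.

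The largest log2 difference of all 50 entries belonged to a weak H2A gene, hist1h2a1 (chromosome 25, bases 36336920 to 36337306). It ran from 1.03 over 4.89 to 11.6 in offspring of starved fathers and from 0.59 over 1.11 to 2.93 in offspring of fed fathers. These values rest on 3 to 48 and on 2 to 10 reads per library, and starved 5 and starved 2 lay inside the fed range. The log2 difference was 1.04 ± 0.43 (SE; limma, adjusted p = 0.868). Another weak H2A gene, hist1h2a4 (chromosome 25, bases 36328524 to 36329005), chosen after its values were seen, was at 17.5 in starved 5 and 17.3 in starved 6. In the other libraries it lay between 0.31 and 1.98 for starved fathers and between 0 and 5.28 for fed fathers, with the highest of these in fed 6. Starved 5, starved 6 and fed 6 share a description code with fed 5, where it was at 0.75.

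The H2B entry hist1h2ba (chromosome 25, bases 35048945 to 35049318) varied widely within both groups. It ran from 10.3 over 55.4 to 115 in offspring of starved fathers and from 15.4 over 39.0 to 78.7 in offspring of fed fathers. The lowest values were in starved 5 and fed 5, which share a code and a letter, and the highest in starved 3. Group means were 55.6 ± 34.7 and 47.7 ± 25.2 (starved and fed fathers, SD, n = 6 each; log2 difference 0.11 ± 0.41, SE; limma, adjusted p = 0.991). Its direction rested on single libraries, with -0.17 without fed 5, -0.16 without starved 3 and 0.51 without starved 5. The H3 entry hist2h3c, the only H3 entry taken by name, was near the floor. It was at 2.16 ± 1.54 in offspring of starved fathers and 1.77 ± 1.00 in offspring of fed fathers (SD, n = 6 each), with 83 reads in all.

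Set against the whole table, replication-dependent entries more often had positive than negative log2 differences, without a call. No entry passed limma's test at an adjusted p below 0.05, nor did any gene of the table (0% called in either direction, smallest adjusted p = 0.775). At an unadjusted p below 0.05 there were 3 replication-dependent entries, hist1h2a11 copy 105444, hist1h4l copy 115281 and hist1h2a1, all higher. In this fit, without a block, no entry was lower and no variant was among them. The shares of all genes at that p were 2.11% higher, 3.44% lower and 5.54% either. On whole reads, edgeR's quasi-likelihood test and DESeq2 also called 0 of the 50. At an unadjusted p below 0.05 edgeR had 6 of the 50, against 4.74% of all genes, and DESeq2 had 7, against 5.51%. Blocking by replicate number, limma called 0 of the 50 at an adjusted p below 0.05, 0.0585% of all genes as higher and 0.227% as lower. At an unadjusted p below 0.05 the blocked fit had 9 of the 50, against 1260 of all 13680 genes. The log2 difference was positive for 31 and negative for 7 of the 38, or 81.6% positive, against 48.0% of all 13680 genes. The median was 0.19, against -0.01 for all genes. Among the 13 entries with a mean value of at least 5, 12 were positive, and among the 25 weaker ones 19. Of all genes in these ranges of mean value, 50.9% and 42.6% were positive in this order. The 30 replication-dependent entries outside those the naming rule picked had mean values from 1.17 to 28.0, with 23 positive and 7 negative log2 differences and an adjusted p from 0.885 to 0.999. No entry had groups of libraries that did not overlap, where 0.11% of all genes did so on the higher and 0.124% on the lower side. Without starved 3, 23 of the 38 were positive and the median was 0.06. Copies of a name may share reads and all entries share the libraries, so they are not independent of each other.

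**Figure D3:**
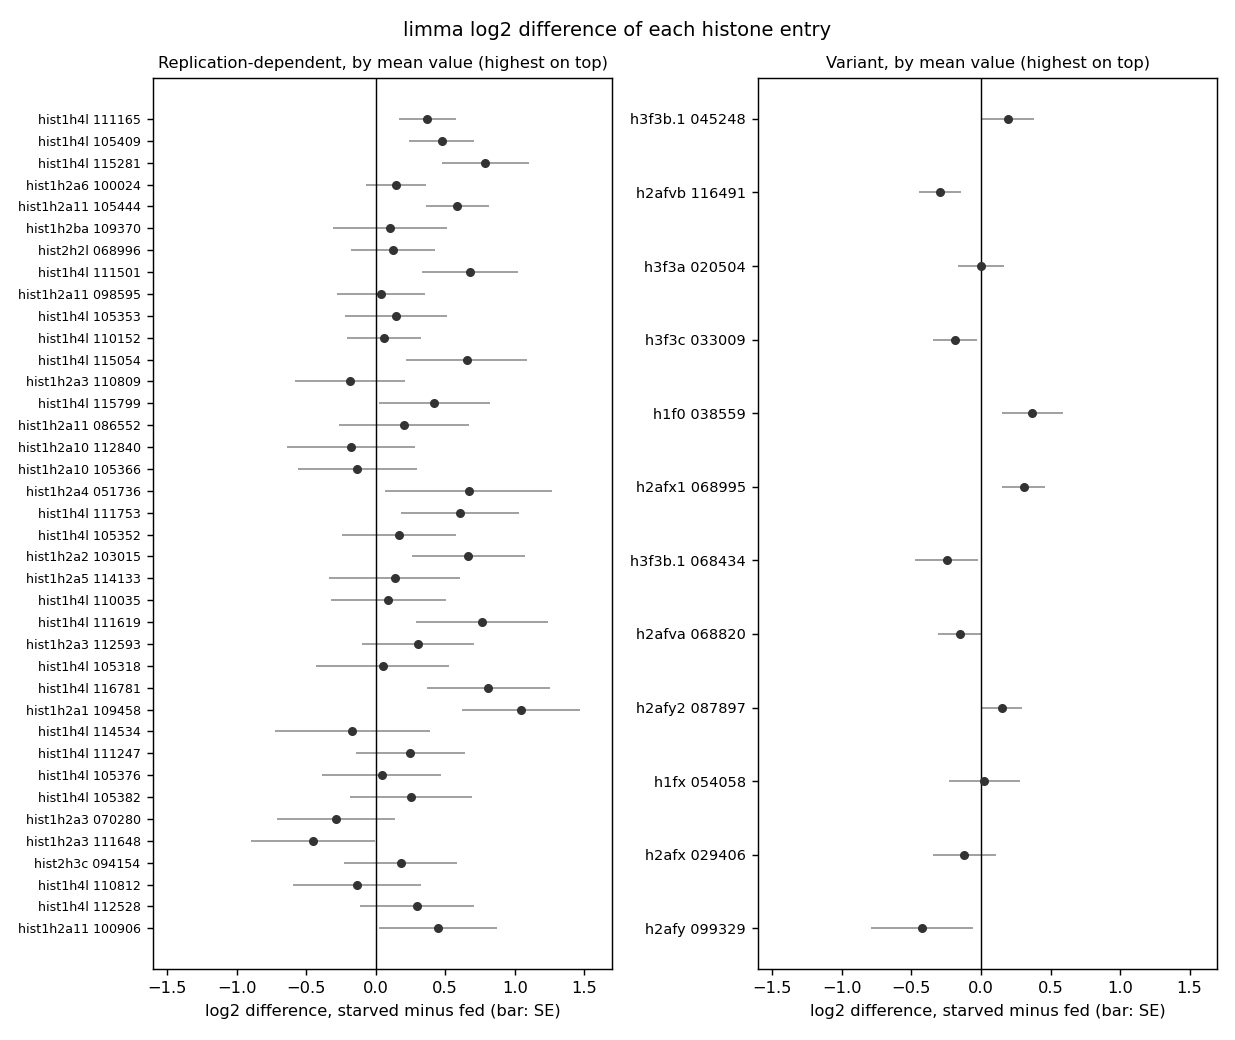
Log2 difference (starved minus fed fathers, limma on log2(value + 1), bars are SE) of each of the 38 replication-dependent and 12 variant entries, ordered by mean value with the most abundant on top. Most replication-dependent entries lie right of 0 (31 of 38) and the variants lie on both sides (5 of 12 positive). None passed the test.

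The 38 summed values ran from 883 over a median of 1290 to 1942 in offspring of starved fathers, and from 716 over 908 to 1234 in offspring of fed fathers. Starved 3, starved 2 and starved 6 were above every fed-father library, and starved 1 was below the fed median. Means were 1356 ± 449 and 937 ± 201 (starved and fed fathers, SD, n = 6 each). Their log2 ratio was 0.53, and leaving out any single library kept this ratio between 0.40 and 0.63. Most of the sum came from the 3 most abundant H4 copies, with means of 943 ± 340 and 618 ± 161 in the same order. Within the 5 description codes, which each hold libraries of both groups, the sum was higher in offspring of starved fathers in all 5. The values were 883 against 716 in code 1118, 1769 against 1100 in code 1203, 1942 against 1234 in code 1210, 961 against 947 in code 1219, and 1290 against 812 in code 1242 as means of 2 libraries each. The gap was therefore wide in 3 codes, narrower in code 1118 and close to nothing in code 1219. For the H2A entries alone it was higher in 3 of 5 codes.

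**Figure D4:**
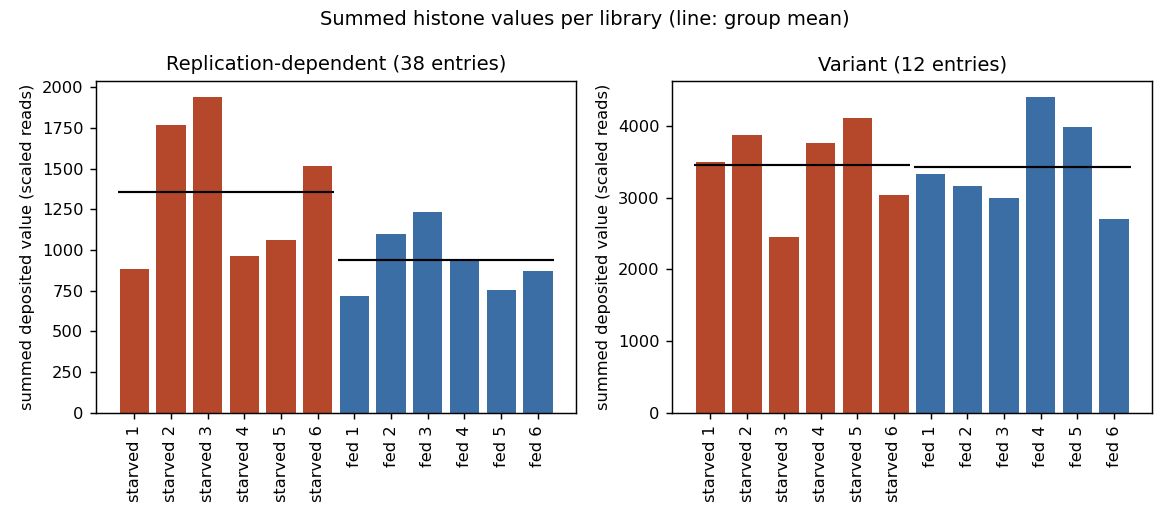
Summed deposited value of the 38 replication-dependent entries (left panel) and of the 12 variant entries (right panel) in each library, with starved-father libraries in red, fed-father libraries in blue and the group mean as a line. Starved 3 has the highest replication-dependent sum, 1942, and the lowest variant sum, 2448.

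Library starved 3 stood out in the replication-dependent genes. Of the 38 entries 20 had their highest value there, or 52.6%, against 12.3% of all genes in the table, and another 9 had it in starved 2. In fed 3, which has the same description code as starved 3, 27 of the 38 lay above their own median over the 12 libraries, the most of any fed-father library. The exceptions in starved 3 included hist2h2l, whose value of 8.44 there was its lowest, against 46.5 in starved 2 and 44.3 in starved 4. Starved 3 also had the lowest share of mitochondrial reads. Its muscle marker sum was 19586 and its yolk layer marker sum 5594, both inside the range of the other libraries. The part of the mitochondrial share in the histone values was not tested.

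**Figure D5:**
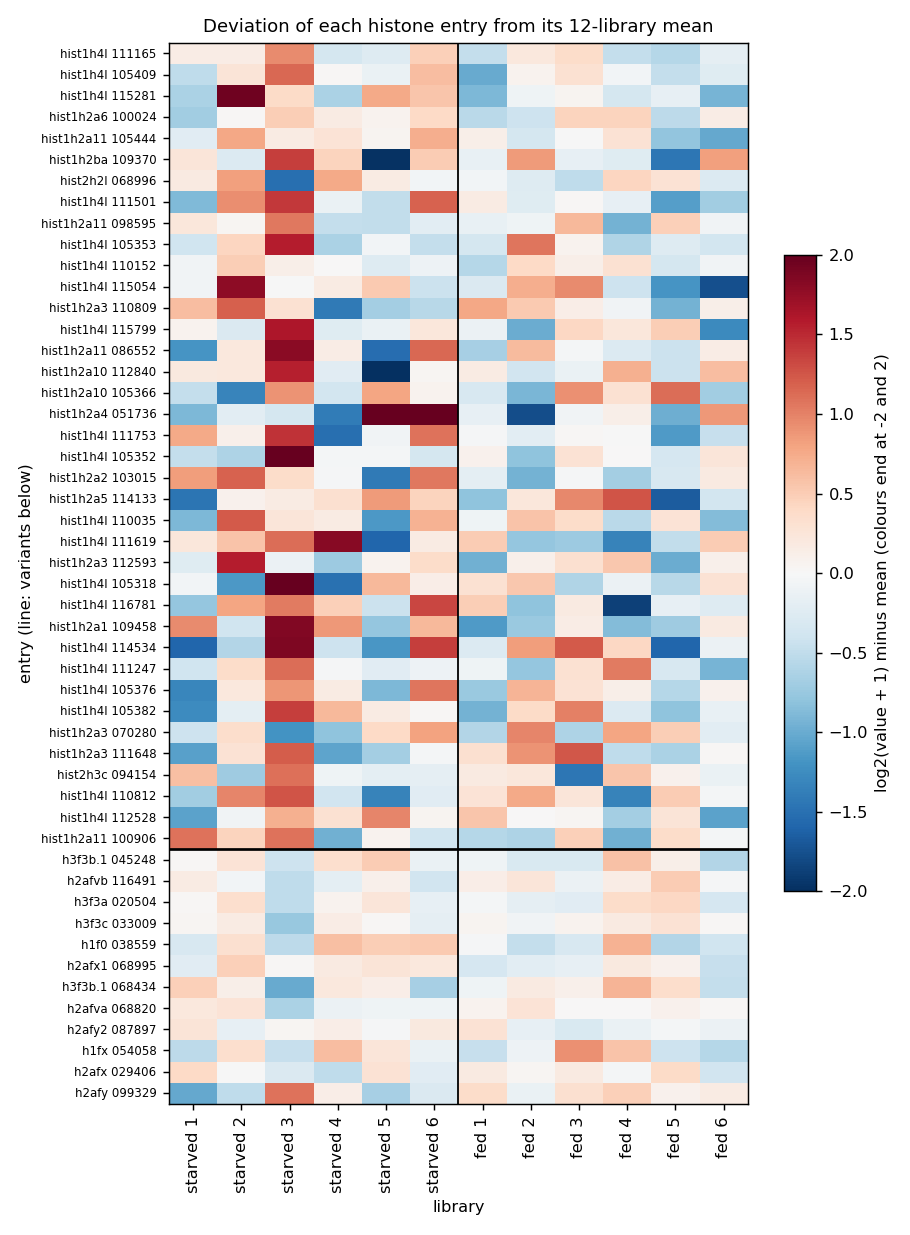
Deviation of log2(value + 1) from the 12-library mean for each entry (rows, most abundant on top within each class, variants below the line) and library (columns, starved fathers left of the vertical line). Starved 3 is high for most replication-dependent rows, with 20 of 38 at their highest there, while 2 of the 12 variants lie above their own median in it.

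The variant genes showed no common direction. Among entries with a mean value of at least 5, the highest library exceeded the lowest by 1.51 to 3.27 times for variants and by 2.29 to 20.9 times for replication-dependent entries. These ranges overlap, since hist1h2a6 was at 2.30 and hist1h4l copy 111165 at 2.89, and the upper end comes from hist1h4l copy 115054, on 4 to 74 reads per library. The replication-dependent entries were also mostly less abundant, and the part of abundance in these ratios was not tested. Of the 12 variants, 5 had a positive and 7 a negative log2 difference, with a median of -0.06, and the adjusted p ran from 0.885 to 1.00. Their summed value was 3453 ± 612 in offspring of starved fathers and 3430 ± 641 in offspring of fed fathers (SD, n = 6 each). It ran from 2448 in starved 3 to 4103 in starved 5, and from 2706 in fed 6 to 4404 in fed 4. The ratio of replication-dependent to variant sums was 0.793 in starved 3, the highest, and 0.190 in fed 5, the lowest. It averaged 0.419 ± 0.214 in offspring of starved fathers and 0.283 ± 0.090 in offspring of fed fathers. Since the kit is not designed to capture the stem-loop form, the ratio does not compare all messenger RNA of the classes.

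Histone H3.3 is encoded by several genes in vertebrates. The most abundant entry, h3f3b.1 on chromosome 24 (bases 37688729 to 37693028; h3f3d in the reference list of names), ran from 857 over 1265 to 1616 in offspring of starved fathers and from 760 over 997 to 1707 in offspring of fed fathers. Its means were 1247 ± 281 and 1102 ± 336 (starved and fed fathers, SD, n = 6 each; log2 difference 0.20 ± 0.19, SE; limma, adjusted p = 0.946). Leaving out a single library moved the difference to 0.099 without fed 6, 0.11 without starved 5, 0.30 without starved 3 and 0.33 without fed 4. The highest library was fed 4 and the lowest fed 6, so the groups overlapped over nearly their whole range. The second entry named h3f3b.1, on chromosome 15 (bases 47860045 to 47865063), was weaker, from 56.2 over 125 to 160 in offspring of starved fathers and from 82.2 over 126 to 183 in offspring of fed fathers. Its lowest values were in starved 3 and starved 6, and its highest in fed 4. Its log2 difference was -0.25 ± 0.23 (SE; limma, adjusted p = 0.943), -0.07 without starved 3, and -0.14 without starved 6 or without fed 4.

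The gene h3f3a (chromosome 3, bases 45776370 to 45778123) had almost equal means, 588 ± 116 in offspring of starved fathers and 591 ± 136 in offspring of fed fathers. It ran from 408 over 597 to 728 and from 457 over 537 to 774 in the same order, lowest in starved 3. Its log2 difference was between -0.068 and 0.10 with single libraries left out. The fourth, h3f3c (chromosome 5, bases 36944533 to 36949476), ran from 114 over 197 to 217 in offspring of starved fathers and from 184 over 201 to 235 in offspring of fed fathers. Starved 3 gave its low end and starved 6, at 171, also lay below every fed-father library. The log2 difference of h3f3c was -0.18 ± 0.16 (SE; limma, adjusted p = 0.942) and without starved 3 it was -0.05. All 4 entries for H3.3 were thus at their lowest among the starved-father libraries in starved 3, and their sum there was 1435 against 1494 to 2857 in fed-father libraries.

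Both H2A.Z genes had lower means in offspring of starved fathers, without passing the test. The gene h2afvb (chromosome 10, bases 44984946 to 44998452) ran from 521 over 683 to 837 in offspring of starved fathers and from 685 over 821 to 1055 in offspring of fed fathers. The means were 681 ± 125 and 831 ± 130 in this order (SD, n = 6 each). The log2 difference was -0.29 ± 0.15 (SE; limma, adjusted p = 0.885), with 1 of the 6 starved-father libraries above the mean of the fed-father libraries. Within codes it was lower in 4 of 5. The weaker h2afva (chromosome 5, bases 13647288 to 13652687) ran from 75.7 over 111 to 143 in offspring of starved fathers and from 118 over 122 to 143 in offspring of fed fathers, and its low end was again starved 3, with starved 4, 5 and 6 also below every fed-father library. Its log2 difference was -0.15 ± 0.16 (SE; limma, adjusted p = 0.947), and -0.04 without starved 3.

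The H2A.X gene h2afx1 (chromosome 10, bases 29816681 to 29817589) had the smallest p of the variants in the fit without a block. It ran from 127 over 171 to 207 in offspring of starved fathers and from 108 over 131 to 170 in offspring of fed fathers, highest in starved 2 and lowest in fed 6. Means were 168 ± 27.0 and 136 ± 23.8 (SD, n = 6 each; log2 difference 0.31 ± 0.15, SE; limma, adjusted p = 0.885), with 5 of 6 starved-father libraries above the fed mean. The gene next to it, hist2h2l (bases 29815644 to 29816467), ran from 8.44 over 29.4 to 46.5 in offspring of starved fathers and from 18.0 over 23.2 to 35.2 in offspring of fed fathers. Both were highest in starved 2, but in starved 3 hist2h2l was at its lowest and h2afx1, at 152, near its middle. The other H2A.X gene, h2afx on chromosome 5, was weak and overlapped throughout, at 15.0 ± 3.95 in offspring of starved and 16.2 ± 2.97 in offspring of fed fathers (SD, n = 6 each).

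The linker histone gene h1f0 (chromosome 24, bases 37567029 to 37568359), whose mammalian counterpart is known for accumulating in cells that stop dividing, ran from 110 over 211 to 242 in offspring of starved fathers and from 106 over 123 to 258 in offspring of fed fathers. The highest values were 242 in starved 4, 227 in starved 6 and 223 in starved 5, against 258 in fed 4. Its log2 difference was 0.37 ± 0.22 (SE; limma, adjusted p = 0.896). Fed 4 and starved 4 share a code, and their muscle marker sums, 9420 in starved 4 and 4199 in fed 4, were among the 3 lowest. In fed 5, with a muscle sum of 5211, h1f0 was at 106, its lowest value. A link between h1f0 and the muscle sum was not tested. The other linker histone gene, h1fx, was at 48.4 ± 15.5 in offspring of starved and 49.4 ± 23.3 in offspring of fed fathers (SD, n = 6 each). Of the macroH2A genes, h2afy2 had the smallest ratio of highest to lowest library of the 24 entries with a mean value of at least 5, at 1.51. It was at 105 ± 11.2 in offspring of starved fathers and 94.9 ± 14.2 in offspring of fed fathers, and h2afy was near the floor at 2.68 ± 2.25 and 3.41 ± 0.646 (SD, n = 6 each).

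The arrays also held other entries, read here after the values of the histone entries were seen. Between the first and last named histone entry of the arrays lay 58 entries with clone-style names, for which the table gives no histone name under the rule, and 2 with other names. Whether the 58 are histone genes themselves was not examined, so counts and read shares of the named entries need not cover all histone copies there. Together the 58 held 37669 reads, against 48082 for the 38 named entries. Among them zgc:171759 (chromosome 25, bases 35124202 to 35124576) had a mean value of 201. Of the 58, 39 had a positive and 19 a negative log2 difference, with a median of 0.15, and none passed. Over all genes 48.0% were positive. Of the 58, 3 had an unadjusted p below 0.05, all of them higher. Of all genes 2.11% were higher, 3.44% lower and 5.54% either at that p. The smallest p belonged to zgc:154164, at 9.74 ± 4.21 in offspring of starved fathers and 3.69 ± 2.18 in offspring of fed fathers (SD, n = 6 each; limma, adjusted p = 0.810). It is listed in the authors' deposited table at an FDR of 0.0562. At an FDR below 0.1 that table lists 2 of the 58 as higher, against 0.219% of all genes. The other is the zgc:112234 entry at bases 6443547 to 6444011 of chromosome 7 (FDR 0.0832).

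Genes that act on histones were read from lists. Of 14 entries for the transcription and 3' processing of histone messenger RNA, 7 were higher and 7 lower with a median log2 difference of 0.00058, and none passed. The smallest p belonged to npat, a coactivator of histone gene transcription, at 24.5 ± 2.78 in offspring of starved fathers and 18.0 ± 3.83 in offspring of fed fathers (log2 difference 0.44 ± 0.20, SE; limma, adjusted p = 0.885). It was followed by casp8ap2 (65.0 ± 8.36 and 54.4 ± 13.6) and the cleavage factor gene cpsf2 (74.1 ± 16.2 and 61.3 ± 9.28). Of 34 entries for histone chaperones and exchange factors, 26 were higher and 8 lower, with a median of 0.12 and none passing. That is 76.5% higher, against 48.0% of all genes. Among them supt6h, a chaperone of transcribed chromatin, was at 238 ± 32.3 and 183 ± 28.5, ipo4, which imports histones into the nucleus, at 10.6 ± 3.38 and 6.02 ± 1.78, and the nucleolar chaperone gene npm1a at 361 ± 77.6 and 289 ± 82.7 (starved and fed fathers, SD, n = 6 each).

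Genes of S phase, the phase in which replication-dependent histones are made, were measured with 38 entries. Of these 28 were higher and 10 lower with a median log2 difference of 0.07, none passing. That is 73.7% higher, against 48.0% of all genes. The licensing gene cdc6 was at 19.2 ± 2.31 in offspring of starved fathers and 12.9 ± 3.90 in offspring of fed fathers, and the DNA polymerase gene pola1 at 168 ± 26.3 and 134 ± 13.2. In the other direction, rrm2, a subunit of ribonucleotide reductase, was at 68.3 ± 32.6 in offspring of starved fathers and 117 ± 38.5 in offspring of fed fathers (SD, n = 6 each; log2 difference -0.88 ± 0.31, SE; limma, adjusted p = 0.845). It is listed in the authors' deposited table at an FDR of 0.00122. The summed value of the S phase entries ran from 2354 to 3019 in starved-father and from 2202 to 2899 in fed-father libraries. In starved 3, where the replication-dependent histone sum was highest, it was at the low end of the starved-father libraries, 2354. Fed 3, of the same description code, was at 2306, and the lowest library was fed 5, at 2202. A link between the S phase and the histone sums was not tested.

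Marker lists of other tissues were set beside the histone sums. Muscle markers had a median log2 difference of 0.43 (15 of 16 higher), yolk layer markers -0.71 (14 of 14 lower) and lens markers 0.33 (7 of 10 higher), and none of these passed limma's test. At an unadjusted p below 0.05, 7 of the 14 yolk layer markers were lower and 1 of the 16 muscle markers was higher. Of all genes 3.44% were lower and 2.11% higher at that p. The authors' deposited table lists 9 of the 14 yolk layer markers as lower and 7 of the 16 muscle markers as higher with an FDR below 0.1. Of all genes it lists 0.841% as lower and 0.219% as higher at that FDR. Named by the smallest p were smyhc1, ttn.2 and actc1b for muscle, ctsba, fga and apoc1 for the yolk layer, and crygn2, cryba2b and mipa for the lens. Of these lens genes cryba2b was lower (log2 difference -0.51), and crygn2 (0.81) and mipa (0.51) were higher. Blood markers had a median of -0.11 (5 of 11 higher). Of those with the smallest p, cahz was lower (log2 difference -1.15), and hbbe1.1 (1.27) and hbbe2 (0.51) were higher. Neural progenitor markers had a median of -0.15 (3 of 11 higher), with the smallest p for her15.2, her15.1 and her4.1. Neuron markers had a median of 0.08 (8 of 9 higher), with the smallest p for insm1a, snap25a and stmn1b. The yolk layer sum ran from 3096 to 11888 in starved-father and from 6077 to 17074 in fed-father libraries, and the libraries with the largest of these sums, fed 5 and fed 4, had replication-dependent sums of 755 and 947. Without fed 4 and fed 5 the median of the replication-dependent entries was 0.20 and 27 of 38 were positive. With all libraries the median was 0.19 and 31 were positive. The log2 ratio of their sums was 0.47 without fed 4 and fed 5, against 0.53 with all libraries. The part of tissue makeup in the histone values was not tested.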

How the data were processed

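The authors deposited 1 table of 3' tag RNA sequencing with 12 library columns. As deposited by the authors, the values are an expression signal that had been made by dividing the reads of a library by its size factor. This was found from the values, of which 100% lay within 0.03 of a whole multiple of 1 read, so whole reads were recovered, without a header that names the unit. Per the file headers the authors also deposited a log2 fold change, here starved over fed, and an FDR, an adjusted p-value. STAR, edgeR and build GRCz11 come from the submitters' processing notes; the counting, the strand setting and the filter were not given in the sources used here.

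limma 3.58.1 in R 4.3.3 (variance trend, no block) was fitted to log2(value + 1) over all 13680 genes, and p-values were adjusted by Benjamini-Hochberg, threshold 0.05. Adding 1 understates changes of low genes. Alternatives on whole reads were edgeR 4.0.16 and DESeq2 1.42.0, where 3 genes had no adjusted p in DESeq2. Members and lists were chosen with earlier results of these data known, so list medians and sums carry no test. Given in full were members with an unadjusted p below 0.05 or an authors' FDR below 0.1, the 6 most abundant and the 3 of smallest p of each class, and for other lists the 3 of smallest p.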

Additional observations from a re-analysis of the deposited data

Results flagged for a closer look

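In 44 groups of 6 libraries, 4 had a highest value set apart from the rest. The gap exceeded Dixon's 95% critical share of the group's range. For independent, normally distributed values chance gives about 1 in 20. All entries share the same libraries, so this rate need not hold here. The hist1h4l copy 115281 was at 701 in starved 2, with the next starved-father library at 305. The gene h2afy was at 6.99 in starved 3, with the next starved-father library at 3.14, on few reads. Among fed-father libraries h1f0 was at 258 in fed 4, with the next at 155, and h2afva at 143 in fed 2, with the next at 126.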

How the results depend on the processing

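No histone entry passed an adjusted p of 0.05 under any of the alternatives run. Same-numbered libraries of the groups share a description code, and for replicates 5 and 6 a letter within it, but the labels do not say what the code stands for, and the numbers were not treated as pairs. Within-group deviations of same-numbered libraries correlated at 0.099 to 0.445 over 8921 genes, and each of the 6 starved-father libraries correlated best with its own number, a hint from the data. A block by replicate number let limma call 39 genes of the table, and 0 of the 50, the nearest being hist1h4l copy 115281 (adjusted p = 0.0542), with 1260 genes at an unadjusted p below 0.05 against 758 without the block. With the description code as a block 1 gene was called, and 1008 genes of the table and 7 of the 50 were at an unadjusted p below 0.05. Leaving out each library in turn, 0 genes and 0 histone entries were called, the replication-dependent median ran from 0.06 to 0.33 (23 to 32 of 38 positive), the variant median from -0.12 to 0.03 and the ratio of variant sums from -0.05 to 0.09 (log2). On whole reads the replication-dependent median was 0.41 in edgeR and 0.42 in DESeq2, with 33 of 38 positive in each, against 0.19 in limma. Scaling to the library total of all listed genes moved the median of all genes to 0.08, where the replication-dependent median was 0.29 and the variant median 0.04. Of the 20 entries followed singly under each alternative, all 12 variants and 8 replication-dependent ones, directions turned for 3, and the cause was not tested. For h3f3a the log2 difference was 0.20 without fed 4 and 5, 0.10 and 0.0051 on library-total scaling with and without mitochondrial genes, and -0.068 to 0.10 with single libraries left out. For h1fx it was -0.078 with replicates 5 and 6 averaged, -0.11 without starved 2 and 5, -0.039 in edgeR, -0.037 in DESeq2, and -0.10 to 0.21 with single libraries left out. For hist1h2ba it was -0.29 without fed 4 and 5 and -0.17 to 0.51 with single libraries left out. Depth limits the 25 replication-dependent entries under a mean value of 5.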
